A study of Mus musculus with 62 samples.

Results

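The genes described here are 9 interferon-stimulated genes, chosen by name from the 53975 gene identifiers of the gene abundance files: Isg15, Usp18, Ifit1, Ifit3, Oasl2, Bst2, Stat2, Irf9 and Irf7. Type I interferons bind the receptor pair Ifnar1 and Ifnar2, the kinases Jak1 and Tyk2 phosphorylate Stat2, and Stat2 and Irf9 are parts of the transcription factor ISGF3, which binds interferon-stimulated response elements in promoters. In the brain the response is best known from microglia, the resident macrophages, though neurons and astrocytes can also mount it. Irf7 is a transcription factor that amplifies interferon production. Isg15 is a ubiquitin-like protein that is attached to other proteins, and Usp18 removes it and restrains signalling from the receptor. Ifit1 and Ifit3 bind foreign RNA or its partners, Oasl2 belongs to the oligoadenylate synthetase family and Bst2 (tetherin) holds budding virus at the cell surface.

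The long-RNA part of the study comprised 17 mouse hippocampus libraries and 14 libraries of HT-22, an immortalised line labelled as derived from mouse hippocampus. The mice carried the App allele NL-G-F, a knock-in with a humanised and mutated amyloid beta sequence (called APP below), or were C57BL/6J mice (called WT), and each library came from the pooled left and right hippocampi of 1 mouse. At 3, 6 and 12 months there were 3 APP animals per age, compared with 2 WT animals at the youngest age and 3 at both later ones. HT-22 cells were treated for 24 h with a locked nucleic acid oligonucleotide (LNA), either against Hsf1, the heat shock transcription factor, at 150 nM or with a scramble sequence, given in the labels as 50 uM. They then received 30 uM of amyloid beta 1-42 peptide or of a peptide with the reversed sequence. The scramble groups held 4 libraries for each peptide and the anti-Hsf1 groups 3 for each peptide. All HT-22 libraries came from a single cell line, and nothing in the labels says whether they were separate cultures, so the p-values below measure the spread between these libraries. Values are TPM (a transcript level per length and per library) scaled by the median of ratios within each system, and mouse and HT-22 libraries were scaled separately. A change was called at a Benjamini-Hochberg adjusted p below 0.05 from limma over all tested genes, and log2 changes are of scaled TPM + 1, which understates the change of low genes.

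The 9 genes lie on GRCm38 at chr4:156199424-156200818 (Isg15, minus strand), chr6:121245906-121270917 (Usp18, plus), chr19:34640871-34650009 (Ifit1, plus), chr19:34583531-34588731 (Ifit3, plus), chr5:114896936-114912234 (Oasl2, plus), chr8:71534255-71537456 (Bst2, minus), chr10:128270559-128292849 (Stat2, plus), chr14:55603571-55610030 (Irf9, plus) and chr7:141262706-141266481 (Irf7, minus). All 9 are protein-coding genes and a value covers all exons of a gene. Irf9 overlaps Rnf31 on the same strand, Irf7 overlaps Phrf1 and Usp18 overlaps Gm44148 on the opposite strand, and no source used here states whether the counting used strand, so reads there may be shared. Ifit3 has a near-identical copy, Ifit3b, and the division of reads between them is uncertain.

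Promoter windows from RefSeq (GRCm38.p6, 250 bases before to 50 after the start site) were matched by symbol for 8 of the 9 genes, Usp18 being the other, and searched on both strands for the core of the response element, GAAANNGAAA, in which N is any base and matches may overlap. The core was found in 5 of the 8 genes (62.5%), in 15 of 49 other pathway genes with a window (30.6%) and in 1079 of 27025 genes of the whole set (3.99%). The 250 bases before the start site are shown, 5′ to 3′ on the gene's strand, for the 5 genes with a match and for Oasl2, the member with the largest difference between APP and WT mice at 12 months and no match, with each match in capitals. They lie at chr4:156200819-156201068 (Isg15, minus strand), chr8:71537473-71537722 (Bst2, minus), chr19:34640639-34640888 (Ifit1, plus), chr19:34583279-34583528 (Ifit3, plus), chr10:128270248-128270497 (Stat2, plus) and chr5:114896684-114896933 (Oasl2, plus).
Isg15: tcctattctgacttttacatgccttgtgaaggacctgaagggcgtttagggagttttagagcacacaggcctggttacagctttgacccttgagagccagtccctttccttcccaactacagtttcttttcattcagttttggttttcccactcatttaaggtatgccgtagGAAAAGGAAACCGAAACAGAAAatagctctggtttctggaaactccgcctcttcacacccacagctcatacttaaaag
Bst2: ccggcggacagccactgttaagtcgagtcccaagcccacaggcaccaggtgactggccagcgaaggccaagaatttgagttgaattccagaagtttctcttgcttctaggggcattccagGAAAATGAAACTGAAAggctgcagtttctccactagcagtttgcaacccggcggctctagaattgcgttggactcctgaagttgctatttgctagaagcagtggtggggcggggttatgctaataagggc
Ifit1: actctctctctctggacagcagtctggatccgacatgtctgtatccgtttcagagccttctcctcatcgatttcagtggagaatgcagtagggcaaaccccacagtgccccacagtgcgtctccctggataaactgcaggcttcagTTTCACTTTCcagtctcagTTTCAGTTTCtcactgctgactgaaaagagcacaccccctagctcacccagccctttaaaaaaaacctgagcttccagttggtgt
Ifit3: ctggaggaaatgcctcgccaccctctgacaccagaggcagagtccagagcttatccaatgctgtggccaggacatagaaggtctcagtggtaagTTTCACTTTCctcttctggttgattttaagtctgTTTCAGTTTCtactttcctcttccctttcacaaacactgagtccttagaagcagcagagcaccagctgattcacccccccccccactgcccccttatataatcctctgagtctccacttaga
Stat2: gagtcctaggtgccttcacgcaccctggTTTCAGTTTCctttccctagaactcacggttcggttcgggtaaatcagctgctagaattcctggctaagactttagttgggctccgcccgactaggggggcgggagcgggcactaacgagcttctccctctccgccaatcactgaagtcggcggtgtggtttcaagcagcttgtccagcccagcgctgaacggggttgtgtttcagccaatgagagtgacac
Oasl2: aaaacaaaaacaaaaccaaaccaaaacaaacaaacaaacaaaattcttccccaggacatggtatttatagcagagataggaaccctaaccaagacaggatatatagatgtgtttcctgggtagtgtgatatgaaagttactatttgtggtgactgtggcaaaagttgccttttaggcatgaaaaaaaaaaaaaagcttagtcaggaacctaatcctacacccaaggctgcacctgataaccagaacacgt

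Isg15 held 3 overlapping matches on the gene's strand, from -78 to -57, and Bst2 held 2 overlapping matches from -130 to -115, counted in bases from the start site. Ifit1 held 2 separate matches on the other strand, from -104 to -95 and from -85 to -76. Ifit3 held 2 as well, from -156 to -147 and from -122 to -113, and the bases TTTCACTTTC and TTTCAGTTTC occur in both genes in that order. The single match of Stat2, from -222 to -213, has the bases TTTCAGTTTC too. Having 2 or more matches was seen in 4 of the 8 genes and in 0.266% of all genes. No match was found in the windows of Oasl2, Irf7 and Irf9, which says only that these letters are not in these windows.

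**Figure D1:**
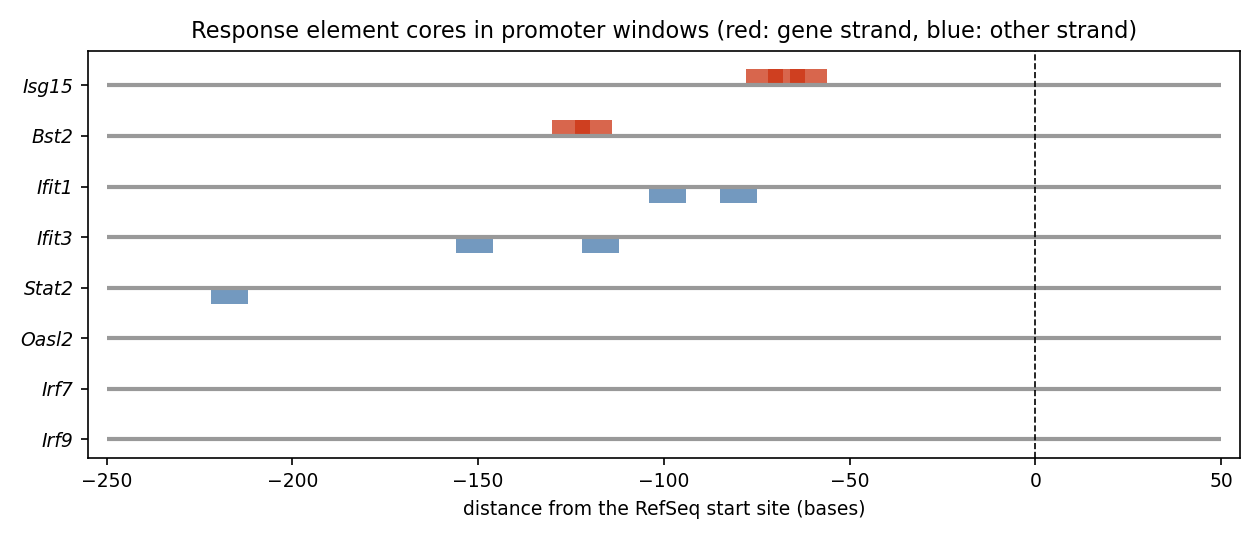
Matches to the response element core in the promoter windows of 8 genes; the horizontal axis is the distance in bases from the RefSeq start site, grey lines are the windows, and boxes above (red) or below (blue) a line are matches on the gene's strand or on the other strand. Isg15, Bst2, Ifit1 and Ifit3 hold 2 or more matches between -156 and -57, and Stat2 holds 1 at -222 to -213.

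Some features of the libraries touch the results. Relative depth, as the ratio of Coverage to FPKM, spanned 1.42 to 3.04 among hippocampal and 0.724 to 2.60 among HT-22 libraries, and the members were thinly covered, with a median read depth over the gene of 0.292 for Irf7, 0.297 for Usp18, 0.42 for Oasl2 and 4.69 for Ifit3 in mouse. Hippocampal libraries held summed neuron markers of 1340 to 1800 scaled TPM, whereas HT-22 libraries held 1.39 to 6.88, with Rbfox3, Snap25 and Syt1 at 0 in all groups, so these defining markers of neurons were absent from a line that is used as a model of hippocampal neurons. Xist, the RNA of the inactive X chromosome, was 70.6 or higher in every APP and 3-month WT library and at most 0.524 in the 6- and 12-month WT libraries, which held Ddx3y, a Y-linked gene, at 18.8 to 28.2. The labels give no sex. At 6 and 12 months genotype and this sex difference therefore cannot be told apart, nor can they in the average over ages or in the genotype by age contrast, whereas the comparisons within APP mice, within 6- and 12-month WT mice and between genotypes at 3 months do not carry it. In HT-22 cells the first principal component of all tested genes (33.5% of the variance) set 3 scramble libraries, amyloid replicates 3 and 4 and reverse-peptide replicate 4, at 62.7 to 67.7 and the other 11 at -25.9 to -12.3. The RNA of Hsf1 was 43.1 to 52.6 in the libraries labelled anti-Hsf1 with reverse peptide against 43.1 to 61.9 under scramble (limma adjusted p = 0.959), and 43.3 to 51.4 against 49 to 71.3 with amyloid (0.52), and those libraries are therefore named by their labels.

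In the hippocampus, 8 of the 9 genes had their highest mean level in the 12-month APP mice, Stat2 being the exception. The share of all tested genes with their highest mean in that group was not taken. Oasl2 was called higher in APP than in WT mice at 12 months. Within APP mice Oasl2, Bst2 and Ifit3 were called higher at 12 than at 3 months. At 3 and 6 months no member was called between genotypes. Irf7 and Usp18 had mean levels under 1 and did not pass the filter on low values, so 7 of the 9 were tested. A change in the number of cells of a type and a change in RNA per cell cannot be told apart in these bulk libraries.

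**Figure D2:**
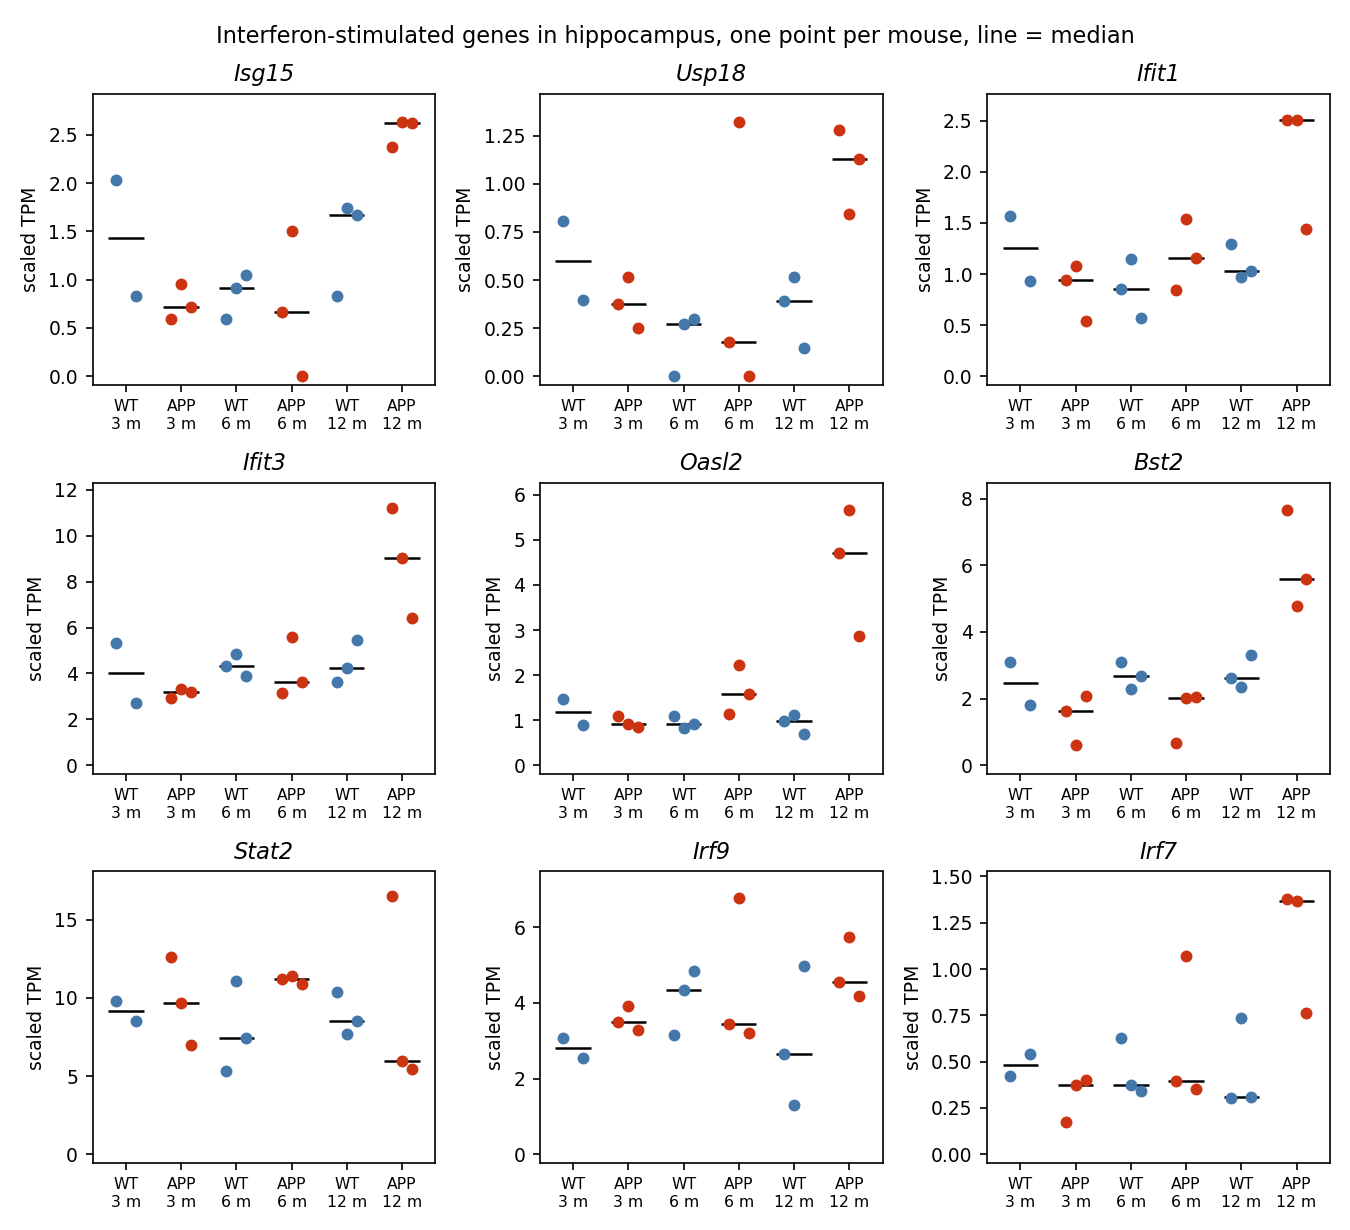
Scaled TPM of the 9 genes in hippocampus (vertical axis, from 0) by genotype and age in months (horizontal axis), 1 point per mouse, blue for WT and red for APP, with the median as a line. The 12-month APP mice lie above the 12-month WT mice in 7 of the 9 panels, against 8.62% of all tested genes, and overlap with them for Stat2 and Irf9. The 7 include Irf7 and Usp18, which did not pass the filter that the share uses.

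Oasl2 measured 4.70, 5.67 and 2.86 scaled TPM in the 12-month APP mice (replicates 1 to 3) and 0.986, 1.12 and 0.692 in the 12-month WT mice. The groups did not overlap, and their means were 4.41 ± 1.43 (SD, n = 3) and 0.934 ± 0.22 (SD, n = 3), a ratio of 4.73. The log2 change was 1.45 (SE 0.215, limma adjusted p = 0.00667), the only member called in this comparison, in which 0.433% of the 17767 tested genes were called. At earlier ages Oasl2 measured 1.09, 0.909 and 0.854 in APP and 1.46 and 0.889 in WT mice at 3 months, and 1.13, 2.23 and 1.59 in APP and 1.1, 0.823 and 0.917 in WT mice at 6 months. WT mice thus stayed between 0.692 and 1.46 at all ages, and all 6-month APP mice were above all 6-month WT mice by a smaller margin. Within APP mice Oasl2 rose by 1.44 from 3 to 12 months (SE 0.215, limma adjusted p = 0.00314), and that call held in every setting run in which it was tested, with adjusted p up to 0.0488. Without APP replicate 1 the adjusted p of the 12-month change became 0.0507 (log2 change 1.40), and with the 12-month groups alone in the fit 0.0614.

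Bst2 measured 7.65, 4.79 and 5.59 in the 12-month APP mice and 2.63, 2.36 and 3.30 in the 12-month WT mice. All APP values were above all WT values, at a ratio of means of 2.17, but the log2 change of 0.88 (95% interval 0.299 to 1.47) did not pass the test (limma adjusted p = 0.328). In younger mice the mean of Bst2 was lower in APP than in WT mice: 1.63, 0.61 and 2.07 against 3.11 and 1.81 at 3 months, and 0.673, 2.01 and 2.04 against 3.10, 2.30 and 2.68 at 6 months. The 6-month groups did not overlap and the 3-month groups did, and neither difference was called. Within APP mice Bst2 rose by 1.55 from 3 to 12 months (SE 0.275, limma adjusted p = 0.00735), and by 1.48 from 6 to 12 months (SE 0.275, limma adjusted p = 0.032). The second of these was lost in most other settings, with adjusted p up to 0.163 when 12-month APP replicate 1 was left out.

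Ifit3 measured 11.2, 9.05 and 6.43 in the 12-month APP mice against 3.64, 4.25 and 5.44 in the 12-month WT mice. In the younger groups it ran from 2.72 to 5.60, so each 12-month APP mouse exceeded every other mouse. Its change from 3 to 12 months in APP mice was called, at 1.22 (SE 0.228, limma adjusted p = 0.00994), and lost its call without 12-month APP replicate 1 (0.0585). The genotype difference at 12 months was 0.85 (95% interval 0.359 to 1.33, limma adjusted p = 0.195). Ifit1 measured 2.51, 2.51 and 1.44 in the 12-month APP mice and 1.29, 0.966 and 1.03 in the 12-month WT mice. Its range over the younger groups, 0.538 to 1.57, overlapped the lowest 12-month APP mouse. Its log2 changes of 0.57 against WT and 0.76 against 3-month APP mice were not called (limma adjusted p = 0.495 and 0.0659).

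Isg15 measured 2.37, 2.63 and 2.62 in the 12-month APP mice and 0.83, 1.74 and 1.67 in the 12-month WT mice. In 3-month mice it measured 0.593, 0.953 and 0.721 (APP) and 2.03 and 0.833 (WT). At 6 months APP replicates 1 and 2 measured 0.668 and 1.5 and replicate 3 is listed at 0, while WT mice measured 0.588, 0.912 and 1.05. The 12-month APP mice were the highest of all and close to each other, yet the changes of 0.58 against WT and 1.02 against 3-month APP mice were not called (limma adjusted p = 0.76 and 0.0737). Usp18, the remover of Isg15, was also highest in the 12-month APP mice, at lower levels: 1.28, 0.842 and 1.13 in the 12-month APP mice against 0.390, 0.515 and 0.149 in the 12-month WT mice. Among younger mice it ran from 0.179 to 0.807 wherever it was above 0, except in 6-month APP replicate 2 at 1.32, and it is listed at 0 in 6-month APP replicate 3 and 6-month WT replicate 1. In a fit without the filter, its change at 12 months was 0.63 (SE 0.254, limma adjusted p = 0.62).

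Of the transcription factors, only Irf7 separated the 12-month groups. Irf7 measured 1.38, 1.37 and 0.764 in the 12-month APP mice against 0.304, 0.737 and 0.307 in the 12-month WT mice, at a ratio of means of 2.61. These groups did not overlap, but 6-month APP replicate 2, at 1.07, lay among the 12-month APP mice, and without the filter the change of 0.58 was not called (limma adjusted p = 0.425). Irf9 measured 4.56, 5.73 and 4.18 in the 12-month APP mice and 2.64, 1.29 and 4.96 in the 12-month WT mice. The groups overlapped, and the change of 0.65 was not called (limma adjusted p = 0.665). Stat2, with the highest level of the 9 genes in most mice, measured 16.5, 5.94 and 5.48 in the 12-month APP mice and 10.4, 7.67 and 8.50 in the 12-month WT mice. In scaled TPM APP replicate 1 was the highest and APP replicates 2 and 3 the lowest of these 6 mice, and the change of -0.09 (95% interval -0.763 to 0.593, limma adjusted p = 0.998) lies within that spread. The deposited read depth over Stat2, not scaled between libraries, gave another order. It was 5.84, 3.78 and 3.75 in these APP mice and 3.81, 2.94 and 2.65 in these WT mice. The order of Stat2 therefore depends on the measure, and the cause was not tested. A pair of younger mice was singled out after their values were seen. APP replicate 2 at 6 months was the highest of the 6-month mice in 8 of the 9 genes, for example Irf9 at 6.77 and Usp18 at 1.32, all but Bst2, and in 18.8% of all tested genes. Its summed microglia markers (8 genes, described further on) were 179, against 102 to 144 in the other 6-month mice. WT replicate 1 at 3 months was the highest of the 3-month mice in 6 of the 9 genes (Bst2, Ifit1, Ifit3, Isg15, Oasl2 and Usp18) and in 18.4% of all tested genes, and its microglia sum of 96.7 was the lowest of the 17 mice. Both shares cover only genes that passed the filter, which Irf7 and Usp18 did not.

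Irf7 and Usp18 are counted here although they did not pass the filter, whereas each share covers only genes that passed it. Counted over all 9 genes, every 12-month APP mouse was above every 12-month WT mouse in 7 genes, Irf7 and Usp18 among them, against 8.62% of all tested genes. Every 12-month APP mouse was above every 3-month APP mouse in 8 genes (all but Stat2), against 11.3% of tested genes, and above every 6-month APP mouse in 4 genes (Ifit3, Isg15, Oasl2 and Bst2), against 10.7%. These 3 comparisons share the 12-month APP mice. At 3 months all APP mice were above all WT mice in 1 gene, Irf9, against 13.8% of tested genes, and below in 1, Irf7, against 13.4%. At 6 months they were above in 1 gene, Oasl2, against 11.1%, and below in 1, Bst2, against 10.2%. From 6 to 12 months in WT mice 0 of the 9 were all above, against 6.05%.

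In the tests, the 7 tested members had a median log2 change of 0.65 between genotypes at 12 months (all tested genes -0.005), with 6 of 7 above 0. Within APP mice the medians were 1.02 from 3 to 12 months, with 3 of 7 called against 3.27% of all genes, and 0.95 from 6 to 12 months, with 1 of 7 called against 0.54%. At 3 months the members ranged from -0.53 to 0.27 between genotypes and at 6 months from -0.57 to 0.50. None of the 7 was called at either age by limma, none had an unadjusted p below 0.05, and 0.304% and 1.71% of all genes were called. Over all genes 13.4% and 17% had an unadjusted p below 0.05 at these ages. In WT mice from 6 to 12 months the members ranged from -0.46 to 0.37 with none called and none at an unadjusted p below 0.05. Of all genes 0% were called and 6.84% had an unadjusted p below 0.05. The genotype difference averaged over ages was not called for any member, with 1 at an unadjusted p below 0.05 (Oasl2, 0.58, limma adjusted p = 0.0849). Of all genes 0.242% were called there and 12.3% had an unadjusted p below 0.05. In the difference of the genotype effects at 12 and 3 months, 5 of 7 had an unadjusted p below 0.05, against 10.1% of all genes. By limma 0 of 7 were called, against 0.0732% of genes. The size of this difference was 1.60 for Oasl2 (limma adjusted p = 0.099), 1.41 for Bst2 (0.234) and 1.07 for Ifit3 (0.277).

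**Figure D3:**
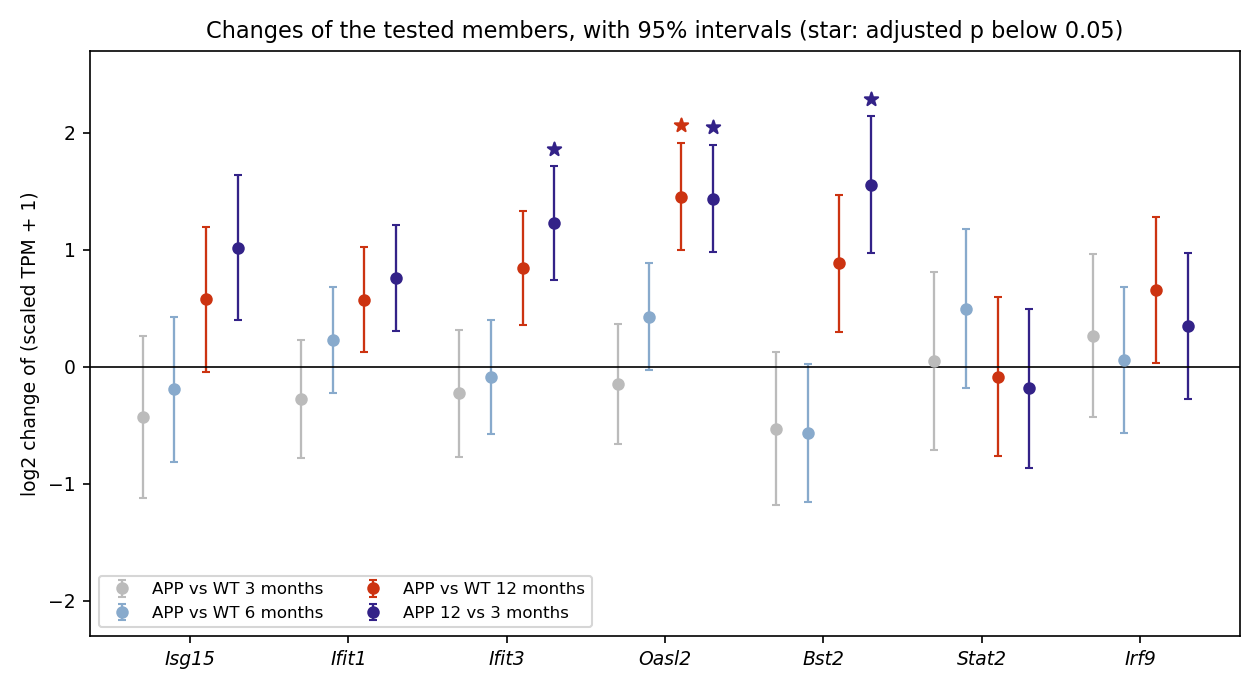
Log2 change of scaled TPM + 1 (vertical axis) for the 7 tested members, with 95% intervals, between genotypes at 3, 6 and 12 months and in APP mice from 3 to 12 months; stars mark adjusted p below 0.05. Oasl2 carries a star at 12 months, and Oasl2, Bst2 and Ifit3 carry one from 3 to 12 months.

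The rest of the pathway was read from a list of 65 further genes, of which 39 passed the filter in mouse. Between genotypes at 12 months 0 of 39 were called by limma, against 0.433% of all tested genes, and 15 had an unadjusted p below 0.05, against 7.03%. Their median change was 0.39, and 36 of 39 were above 0. From 3 to 12 months in APP mice 7 of 39 were called higher and 0 lower by limma, against 3.27% of all tested genes called. By direction 33 of 39 were above 0, and 23 had an unadjusted p below 0.05, against 16.5%. The 7 called were the transcription factor Irf1 (0.89, limma adjusted p = 0.0472) and 6 targets. Among the targets, the membrane protein Ifitm3 rose by 1.46 (limma adjusted p = 0.00609), from 4.06 to 6.39 scaled TPM over the 3-month mice to 13.1 to 16.5 at 12 months. Lgals3bp, a secreted galectin-binding protein, rose by 1.56 (limma adjusted p = 0.0141), from 4.64 to 9.82 up to 18.4 to 32.7. The GTPase Gbp2 rose by 1.28 (limma adjusted p = 0.00982), from 0.229 to 0.757 up to 2.04 to 3.97. The other 3 were Ifi27 (1.03, limma adjusted p = 0.0097), the Ifit3 copy Ifit3b (1.03, 0.0329) and the ubiquitin ligase Trim25 (0.75, 0.0393).

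Upstream of the members, the ligands Ifna4, Ifnb1, Ifnl2 and Ifnl3 are listed at 0 in every mouse library, and Ifng is above 0 only among the 12-month APP mice, at a summed ligand level of at most 0.0974. Of the 6 receptors 5 were tested and 0 were called by limma in any mouse comparison, with 1 at an unadjusted p below 0.05 between genotypes at 12 months and 1 from 3 to 12 months in APP mice. Ifnar1, for example, measured 10.8 to 11.7 in 12-month APP mice and 11.1 to 12.8 in 12-month WT mice. In the same comparisons 0 of 3 kinases were called, with 0 and 2 at an unadjusted p below 0.05, and 0 of 5 tested sensors and adaptors, with 1 and 3. Over all tested genes 0.433% and 3.27% were called in these 2 comparisons by limma, and 7.03% and 16.5% had an unadjusted p below 0.05.

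**Figure D4:**
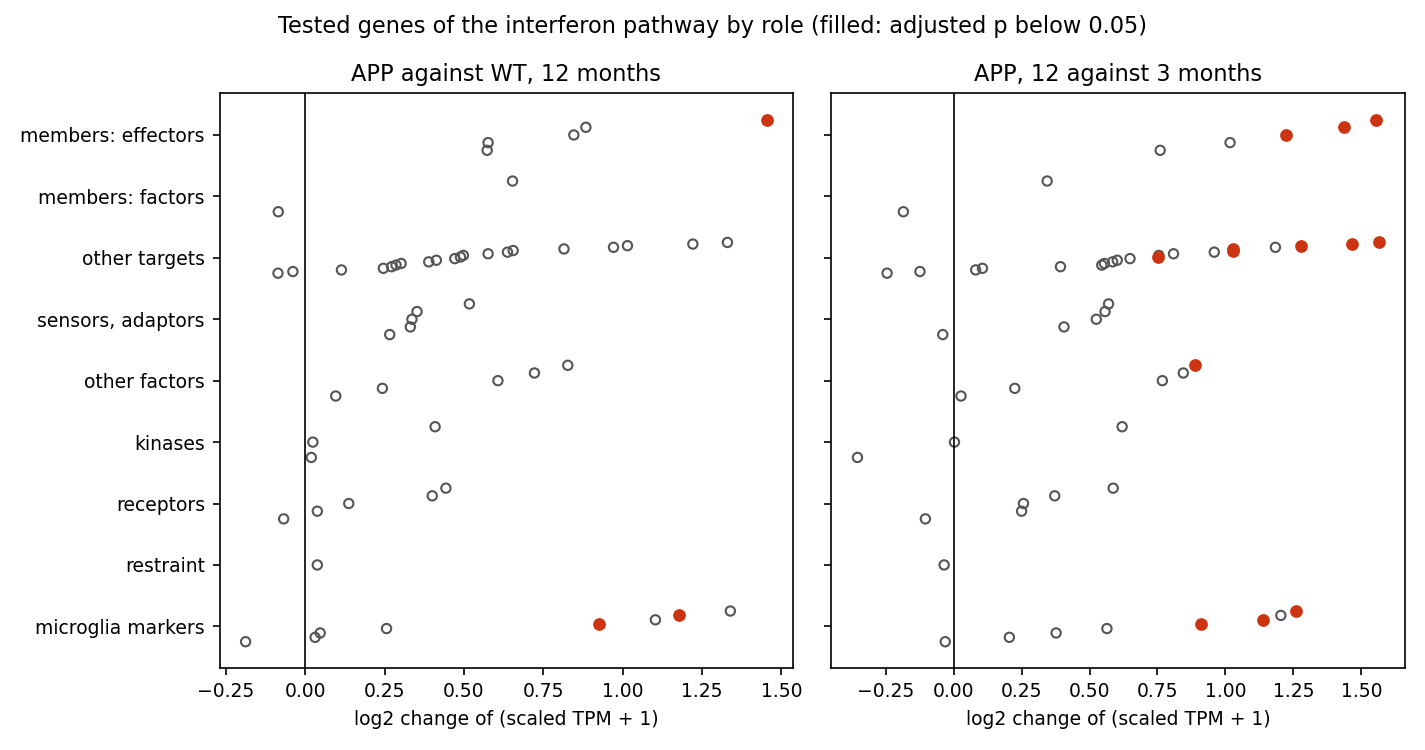
Log2 change of scaled TPM + 1 (horizontal axis) of each tested gene, by role in the pathway, with microglia markers in the lowest line, for APP against WT at 12 months (left) and APP at 12 against 3 months (right); filled points have an adjusted p below 0.05. The right panel holds 3 filled members, 6 filled targets and Irf1.

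Summed markers of microglia were also highest in the 12-month APP mice, but they did not follow the members in every mouse. WT replicate 1 at 3 months, highest of its age in 6 members, had the lowest sum of all mice, 96.7. The summed level of 8 microglia markers was 220 to 232 in the 12-month APP mice, 116 to 134 in the 12-month WT mice and 106 to 120 in the 3-month APP mice, and none of the 8 was at 0 in any mouse group. The ratio of means was 1.79 between genotypes at 12 months and 1.99 between 12 and 3 months in APP mice. Against this it was 4.73 and 4.64 for Oasl2, 2.17 and 4.18 for Bst2 and 2.00 and 2.82 for Ifit3. For Usp18 it was 3.09 and 2.85, for Irf7 2.61 and 3.71 and for Ifit1 1.97 and 2.53. Isg15 had 1.80 and 3.36, Irf9 1.63 and 1.35 and Stat2 1.05 and 0.954. Irf9 and Stat2 were thus below the microglia markers in both comparisons. The median log2 changes were 0.65 and 1.02 for the tested members and 0.59 and 0.74 for the microglia markers. Of the 8 markers 2 were called between genotypes at 12 months, against 0.433% of all tested genes. From 3 to 12 months in APP mice 3 were called, against 3.27%, and 7 of 8 were above 0 in each comparison. Csf1r was among those called in both comparisons and Aif1 among those called from 3 to 12 months. P2ry12 and Siglech, markers of resting microglia, changed by 0.03 and 0.05 between genotypes at 12 months and were not called. In 6-month APP mice the sum was 102 to 179. The summed astrocyte markers had ratios of 1.46 and 1.79, but the median log2 changes of the 5 markers were only 0.16 and 0.37. Of the 5, 1 was called in each comparison, Gfap. Endothelial markers summed to 26.7 to 31 in the 12-month APP mice and 17.1 to 23.2 in the 12-month WT mice, a ratio of 1.46. In this comparison 4 of 4 were above 0, 3 had an unadjusted p below 0.05, against 7.03% of all tested genes, and 0 were called by limma. Their ratio from 3 to 12 months was 0.958. Further, all 4 oligodendrocyte markers fell from 3 to 12 months in APP mice, and 3 of them were called, against 3.27% of all tested genes. The choroid plexus sum varied from 38.7 to 2420 over mice, and its ratios were 1.74 and 1.31. T-cell markers summed to at most 0.435, and Cd3d was at 0 in every mouse group. The part of these cell types in the members' changes was not tested.

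In HT-22 cells all 9 genes passed the filter. Levels as deposited, set side by side although each library is normalised to its own total, were 14.4 to 65.2 TPM for Stat2 in HT-22 cells against 3.66 to 16.4 in mouse, 7.30 to 19.9 against 0 to 2.72 for Isg15, and 3.04 to 8.38 against 0.479 to 2.53 for Ifit1. Not all members were higher there, as Ifit3 ran from 1.47 to 6.6 against 2.97 to 11.1 and Bst2 from 0 to 4.73 against 0.622 to 7.59. Microglia markers summed to 77 to 78.6 scaled TPM in the 3 libraries that stood apart and to 34.8 to 43.6 in the other 11, with Itgam, P2ry12 and Siglech at 0 in all groups. Only 2 of the 8 markers passed the filter in HT-22 cells, so this sum rests on few genes and is no measure of microglia there. None of the 9 members was called in any HT-22 comparison. The highest mean lay in the amyloid anti-Hsf1 group for 6 genes (Isg15, Ifit3, Oasl2, Bst2, Stat2 and Irf9) and in the reverse-peptide anti-Hsf1 group for the other 3 (Ifit1, Usp18 and Irf7). For these rankings no share over all tested genes was taken.

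**Figure D5:**
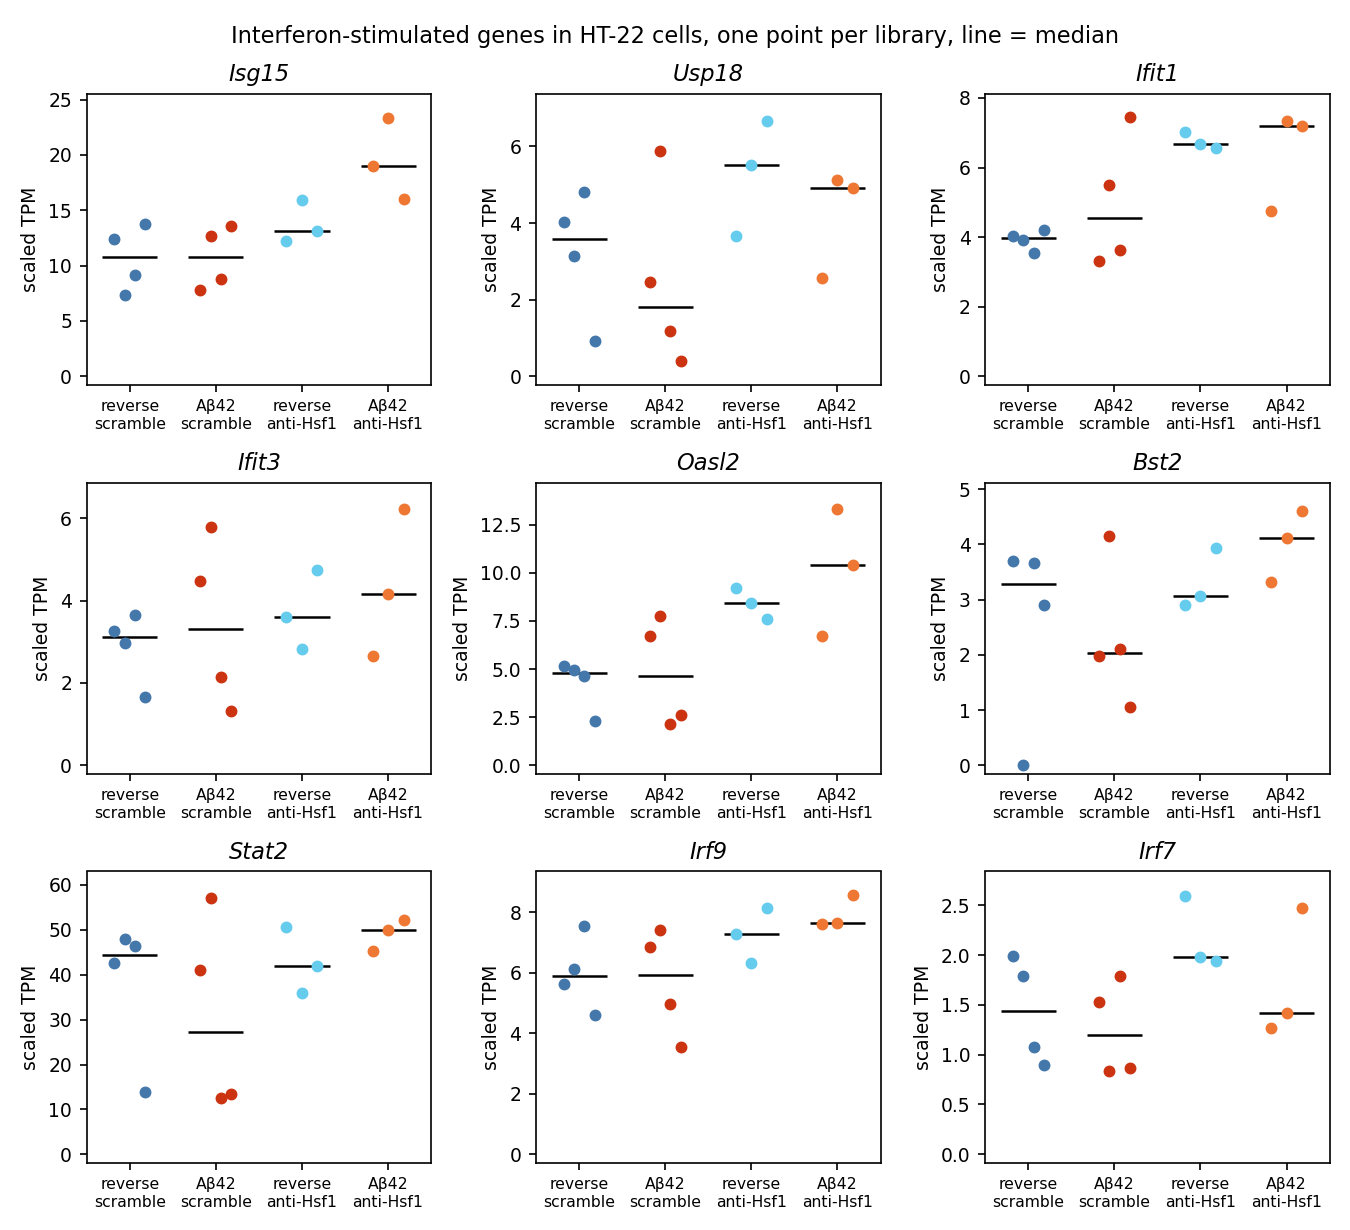
Scaled TPM of the 9 genes in HT-22 cells (vertical axis, from 0) by peptide and LNA (horizontal axis), 1 point per library with the median as a line. In the Stat2 panel 3 scramble libraries lie between 12.5 and 13.8 and the other 11 libraries at 35.9 or higher.

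Amyloid against reverse peptide gave changes from -0.42 to 0.22 under scramble and from -0.28 to 0.46 under anti-Hsf1 LNA. By limma 0 of 9 members were called in either, 0 had an unadjusted p below 0.05, and 0% of the 17224 tested genes were called under scramble and 0% under anti-Hsf1. Of the tested genes 5.03% and 4.59% had an unadjusted p below 0.05. The peptide by LNA interaction ranged from -0.30 to 0.62 for the members, again with 0 called and 0 at an unadjusted p below 0.05. Of all genes 0% were called and 5.18% had an unadjusted p below 0.05. Isg15 had the largest change under anti-Hsf1: amyloid libraries measured 19.0, 23.3 and 16.0 and reverse-peptide libraries 12.2, 15.9 and 13.1. These groups were separated by a narrow gap between 15.9 and 16.0, and 8.74% of all tested genes lay wholly higher with amyloid there. Without the 3 libraries that stood apart, the members ranged from -0.26 to 0.51 between peptides under scramble and from -0.37 to 0.39 in the interaction, with 0 called by limma and 0 at an unadjusted p below 0.05.

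Libraries labelled anti-Hsf1 had higher mean levels than scramble libraries for all 9 genes under either peptide, with a median change of 0.40 under reverse peptide and 0.67 under amyloid (all genes 0.002 and 0.003). By limma 0 of 9 were called under reverse peptide (2 at an unadjusted p below 0.05, 0% of all genes called) and 0 of 9 under amyloid (2 at an unadjusted p below 0.05, 0.0232% of genes called). Over all genes 3.61% under reverse peptide and 9.02% under amyloid had an unadjusted p below 0.05. The 3 libraries that stood apart are all in the scramble groups. Without them, an alternative chosen after seeing the data, the median change was 0.31 under reverse peptide and 0.31 under amyloid, 8 of the 9 were above 0 in each, and again 0 were called by limma, with 2 and 1 at an unadjusted p below 0.05. The share of all genes at that unadjusted level was not taken for this alternative.

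Oasl2 measured 9.20, 8.41 and 7.60 (reverse peptide, anti-Hsf1) against 5.15, 4.93, 4.63 and 2.28 (reverse peptide, scramble), the last being a library that stood apart. The groups did not overlap with or without it. The log2 change was 0.88 with all libraries (SE 0.363, limma adjusted p = 0.959) and 0.66 without those 3 (SE 0.205, limma adjusted p = 0.949). Under amyloid it measured 6.71, 13.3 and 10.4 against 6.69, 7.75, 2.17 and 2.63, an overlapping pair, with changes of 1.03 and 0.40 (limma adjusted p = 0.482 and 0.722). Ifit1 measured 7.02, 6.67 and 6.56 against 4.02, 3.93, 3.54 and 4.21 under reverse peptide. These groups were far apart and narrow, and the change was 0.66 with all libraries and 0.68 without the 3 (limma adjusted p = 0.959 and 0.949). Under amyloid Ifit1 overlapped, at 4.76, 7.34 and 7.19 against 3.30, 5.49, 3.62 and 7.46.

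Isg15 under amyloid measured 19.0, 23.3 and 16.0 with anti-Hsf1 and 7.77, 12.7, 8.81 and 13.6 with scramble, without overlap. The change was 0.82 (SE 0.233, limma adjusted p = 0.418) and 0.88 without the 3 libraries (limma adjusted p = 0.465). Under reverse peptide the groups overlapped, at 12.2, 15.9 and 13.1 against 12.4, 7.34, 9.13 and 13.8. All anti-Hsf1 libraries lay above all scramble libraries in 2 members under reverse peptide (Ifit1 and Oasl2, against 3.15% of genes) and in 2 under amyloid (Isg15 and Irf9, against 4.38%).

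Stat2 followed the libraries that stood apart more than the labels. It measured 41.0, 57.2, 12.5 and 13.4 under amyloid and scramble, 42.6, 47.9, 46.3 and 13.8 under reverse peptide and scramble, 45.4, 49.9 and 52.1 under amyloid and anti-Hsf1, and 50.6, 35.9 and 41.9 under reverse peptide and anti-Hsf1. The 3 low values are those 3 libraries. With all libraries the anti-Hsf1 change was 0.93 under amyloid and 0.31 under reverse peptide, and without the 3 it was 0.02 and -0.11, with no call in either case (limma adjusted p from 0.561 to 0.988). The 3 libraries were below all other 11 in 5 of the 9 genes and in 12% of all tested genes, the libraries having been set apart by those same genes. Usp18 was low in them, at 1.17, 0.403 and 0.912, against 2.47 to 6.65 in the other 11. Irf9 was 4.97, 3.55 and 4.59 in them and 5.62 to 8.57 in the others. Oasl2 was 2.17, 2.63 and 2.28 against 4.63 to 13.3, and Ifit3 was 2.15, 1.31 and 1.66 against 2.66 to 6.23. Isg15, by contrast, was 8.81, 13.6 and 13.8 in them, within the range of 7.34 to 23.3 of the others.

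Bst2 under reverse peptide and scramble measured 3.70, 3.66 and 2.90 in replicates 1, 3 and 4 and is listed at 0 in replicate 2. Against 2.91, 3.06 and 3.94 with anti-Hsf1 the change was 0.49, and -0.04 without that library. Ifit3 ran from 1.31 to 6.23 and Irf7 from 0.837 to 2.59 over the 14 libraries, and both overlapped between the LNA groups under either peptide. Irf9 under amyloid measured 7.61, 7.66 and 8.57 with anti-Hsf1 and 6.87, 7.42, 4.97 and 3.55 with scramble. These groups did not overlap, and the change was 0.46 (limma adjusted p = 0.549), or 0.14 without the 3 libraries.

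The genes whose pattern over libraries was most like the mean of the tested members were found by Pearson correlation, as a description over libraries that share their depth and composition. In mouse they were Irgm2 (r = 0.951 over 17 libraries), Slc15a3 (0.90), Cd74 (0.899), Gm8995 (0.89) and H2-Q4 (0.89), and the first remained at 0.855 without the 2 libraries farthest from the median, the others at 0.67 to 0.755. These were the highest of 17721 genes searched. By ranks (Spearman) the correlation was 0.897 for Irgm2 and lower for the others, down to 0.512 for Cd74 and 0.458 for Gm8995. In HT-22 cells, out of 17169 genes searched, they were Gm43330 (0.941 over 14 libraries), 6330537M06Rik (0.927), Igtp (0.911), Usp32 (0.903) and Gm48488 (0.899). Among the members, Ifit3 followed the mean most closely in mouse (0.956) and Stat2 least (0.206), and in HT-22 cells Oasl2 followed it most closely (0.947) and Irf7 least (0.489). Each tested member is itself part of the mean, which raises its r, so these values cannot be set against those of the other genes.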

How the data were processed

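Long RNA, fragmented and depleted of ribosomal RNA per the labels' protocols, was read from 1 gene abundance table per library. Each deposited table holds a Coverage signal, FPKM and TPM per gene, per the file headers, with coordinates on GRCm38. The submitters' processing notes list FastQC, cutadapt 1.18, BWA 0.7.17, HISAT2 2.1.0, bedtools 2.26.0 and StringTie 1.3.4d, with no role or order. The deposited TPM sums to 999822.8 to 999916.6 per library and keeps no read numbers, so no count model was run, and the deposited FPKM and Coverage signal gave only relative depth. The short-RNA libraries were not used here.

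TPM of rows sharing a gene identifier was summed and scaled by the median of ratios, in mouse and HT-22 libraries separately (size factors 0.688 to 1.459 and 0.639 to 1.231). Groups were taken from the labels. limma 3.58.1 (R 4.3.3, trend and robust moderation) was fitted to log2(scaled TPM + 1) for genes with a mean of at least 1, 17767 in mouse and 17224 in HT-22 cells, in 1 fit per system, with Benjamini-Hochberg adjustment over all tested genes and two-sided tests. The scripts were tested on simulated data. The members, the lists of pathway genes and markers and the tests were chosen with earlier results of these data known, and the genes named are the members, the pathway genes called or abundant in their role, and in each system the 5 genes most like the members' mean. No 2 libraries held identical values. Deviations of same-numbered replicates of different groups correlated at -0.148 to 0.227 in mouse (median -0.006) and -0.216 to 0.575 in HT-22 cells (0.013), and those of different-numbered ones at -0.187 to 0.171 (-0.007) and -0.547 to 0.557 (0.002). Not every same-numbered pair was above 0.1 and the labels tie no numbers together, so the numbers were not taken to pair libraries. Alternatives were no scaling, another pseudocount (0.1), no filter or a mean of at least 5, only the groups compared, a replicate block and leaving out each library. One alternative, leaving out 3 HT-22 libraries, was added after seeing the data. Tables and promoters were processed in Python 3.11.15 (pandas 2.3.3, matplotlib 3.10.9).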

Additional observations from a re-analysis of the deposited data

Results flagged for a closer look

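Stat2 in HT-22 cells with scramble LNA and reverse peptide measured 42.6, 47.9, 46.3 and 13.8 scaled TPM in replicates 1 to 4, and the lowest library, at 13.8, lay farther from the others than Dixon's 95% critical value allows for 4 values. Chance alone flags about 1 in 20 such sets, and 18 sets (9 genes in 2 groups of 4 libraries) were examined. The library is one of the 3 that stood apart on the first principal component of all genes; in the other 2, amyloid replicates 3 and 4 under scramble, Stat2 measured 12.5 and 13.4.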

How the results depend on the processing

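Of the members called between APP and WT mice at 12 months (1), 0 remained called with a filter at a mean of 5, under which Stat2 is the only member tested in mouse, and 0 with only the compared groups in the fit. From 3 to 12 months in APP mice (3 called) the filter at 5 left 0. From 6 to 12 months (1 called) 0 were called without scaling, with the pseudocount 0.1, without a filter, with the filter at 5 and with only the compared groups. Without scaling 3 members were called between genotypes at 6 months, 1 in the average over ages and 1 (Oasl2, 1.78, limma adjusted p = 0.0271) in the genotype by age contrast. There the median of all genes moved to 0.598 at 6 months, 0.184 in the average and 0.287 in the genotype by age contrast, and to -0.622 for anti-Hsf1 against scramble under amyloid, and the members' unscaled changes include that shift. Leaving out 1 library gave 0 to 1 members at 12 months, 0 to 4 from 6 to 12 months and 2 to 3 from 3 to 12 months. The number of calls over all genes moved more: 77 at 12 months (49 to 114 in other settings, 17 to 47 with 1 library left out), 581 from 3 to 12 months (130 to 516, 160 to 754), 96 from 6 to 12 months (1 to 79, 1 to 125), 304 at 6 months (37 to 10339, the last without scaling), 54 at 3 months (4 to 72, 7 to 376), 43 in the average (14 to 1353), 13 by genotype and age (12 to 81, 9 to 70) and 4 for anti-Hsf1 under amyloid (0 to 8766, the last without scaling). Without scaling 4197 genes were also called between peptides under anti-Hsf1 and 4379 in the interaction, against 0 with it.

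Changes of single members under other settings were followed for APP against WT at 12 months and for APP mice from 3 and from 6 to 12 months. They were also followed for the genotype by age contrast and for anti-Hsf1 against scramble under either peptide. In these comparisons, changes that turned sign were all uncalled. Turns of sign in the other comparisons, among them APP against WT at 3 and 6 months, were not listed. Without scaling Stat2 became 0.045 at 12 months and 0.17 by genotype and age, Irf9 -0.11 from 6 to 12 months, and under amyloid with anti-Hsf1 Irf9 -0.17, Irf7 -0.15, Ifit1 -0.25 and Ifit3 -0.21. With a replicate block Stat2 became -0.04 for anti-Hsf1 under reverse peptide, and no count of called members changed. Without the 3 HT-22 libraries apart, Stat2 became -0.11 there and Ifit3 -0.24 under amyloid. With 1 library left out, Stat2 ran from -0.55 to 0.17 at 12 months, from -0.65 to 0.072 between 3 and 12 months in APP mice, from -0.59 to 0.13 by genotype and age and from -0.10 to 0.47 for anti-Hsf1 under reverse peptide, Irf9 from -0.025 to 0.42 between 6 and 12 months, and Bst2 from -0.039 to 0.70 for anti-Hsf1 under reverse peptide. The cause of these shifts was not tested. Thin read depth over the members, for example a median of 0.42 for Oasl2 in mouse, limits small differences.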
